A study of Mus musculus with 17 samples.

Results

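The genes described here encode potassium channels and the subunits that accompany them, and they were chosen as the protein-coding mouse genes whose symbol begins with Kcn, leaving out Kcnj10 and Kcnj13. The rule gave 92 genes out of 38355 identifiers in the count files, and it used no measured value. Hippocampus dissected by hand from wild-type C57BL/6J mice without treatment was sequenced as polyA RNA in 17 libraries. Libraries of single-end reads came from the ages of 3 months (3M, n = 5 libraries) and 24 months (24M, n = 6), and libraries of paired-end reads from 3 months (n = 3) and 29 months (29M, n = 3). Comparisons were made within a library type, 24M with the single-end and 29M with the paired-end 3M libraries. Library type was thus kept apart from age in each of these comparisons. The 29M mice were obtained at the age of 24 months and housed on by the study. The question put to these genes was which of them change their RNA level with age.

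Potassium channels let potassium ions leave or enter the cell along their gradient, which sets the resting potential and ends the action potential. Voltage-gated (Kv) channels open on depolarisation, inward rectifiers (Kir) and two-pore-domain channels (K2P) carry current around rest, and other channels open with calcium or sodium. In hippocampal neurons they shape spike width, firing rate and dendritic excitability, and in astrocytes they take up the potassium that neurons release.

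The pore of these channels is lined by a short stretch of protein, the selectivity filter. Its signature was searched here in the longest coding sequence of each gene. The pattern was threonine or serine, then valine, isoleucine or leucine, then glycine, then tyrosine or phenylalanine, then glycine. Each Kv, Kir and calcium- or sodium-activated pore subunit held 1 such signature. Of the K2P genes, whose subunits carry a pair of pore domains, 11 held 2, 1 held 1 and 2 held none by this search, and none of the 17 auxiliary subunits held one. The coding sequence around it is shown for pore subunits that passed the test at 24M, as examples of what makes these genes a family, read from GRCm38 with GENCODE M21 and with the 5 signature codons in capitals. For Kcnk12 the second of 2 signatures is shown, because the first is split by an intron. Each stretch lies within 1 coding exon.
Kcnh5, chr12:75087445-75087501, minus strand: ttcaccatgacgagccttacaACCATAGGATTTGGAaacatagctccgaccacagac
Kcnf1, chr12:17175040-17175096, minus strand: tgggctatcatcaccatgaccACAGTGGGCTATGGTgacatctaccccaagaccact
Kcnt1, chr2:25894346-25894402, plus strand: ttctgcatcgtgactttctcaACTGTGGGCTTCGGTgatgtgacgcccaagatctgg
Kcnj9, chr1:172326163-172326219, minus strand: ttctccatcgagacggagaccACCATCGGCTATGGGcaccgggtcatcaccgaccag
Kcnj4, chr15:79485346-79485402, minus strand: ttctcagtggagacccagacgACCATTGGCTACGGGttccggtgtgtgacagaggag
Kcnj16, chr11:111024883-111024939, plus strand: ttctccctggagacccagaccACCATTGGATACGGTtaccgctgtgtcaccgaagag
Kcnk12, chr17:87746432-87746488, minus strand: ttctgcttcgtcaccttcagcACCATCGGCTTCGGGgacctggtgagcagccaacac

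The libraries held 9213474 to 28438296 reads assigned to genes. In the single-end libraries depth went along with age, at 19144461 to 28438296 for 3M (median 20289215) and 9213474 to 19756411 for 24M (median 14363897). Paired-end libraries held 10977976 to 15054972 at 3M and 10991389 to 13563541 at 29M. The part of depth in the results was not tested. Replicates 1 and 4 of the 24M group differed by less than the sampling noise between libraries (mean squared difference over binomial variance 0.406, against at least 1.23 in the other 135 pairs), so their rounded mean was counted as 1 sample and the 24M group had n = 5 samples. Neither the labels nor the protocols say that each library came from a separate animal, so p-values measure the spread between these libraries, which may be technical. Of 13 markers of hippocampal subfields, all were detected in both experiments. Replicate 4 of the 3M single-end group stood apart in markers of tissue outside the hippocampus: the summed level of 10 striatal markers was 810.3 CPM (normalised counts-per-million) in it and 301.2 to 365.1 CPM in the other 3M single-end samples. The summed level of 11 immediate early genes in it was 949.4 CPM, against 315.4 to 568.7 CPM in the others. Which potassium channel genes passed with and without this library is given below. For partner genes and markers only fits with it are given.

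The potassium channel genes covered a wide range of levels. In CPM per kilobase of exon, averaged over 16 samples, Kcnab2 was highest at 135.6 ± 8.02 (SD), and it encodes a beta subunit that binds Kv1 channels. It was followed by Kcna1 (58.1 ± 4.66), the Kv1 subunit of axons, and by Kcnip2 (49.2 ± 5.35), which encodes a calcium-binding partner of Kv4 channels. Kcnk1, a K2P channel, stood at 45.8 ± 5.09 and Kcnj4, an inward rectifier, at 42.8 ± 5.37. The range of Kcnab2 over samples (125.5 to 153.3) did not meet that of Kcna1 (51.2 to 68.4), whereas each of the next genes named overlapped its neighbour. The Kv4 pore subunit Kcnd2 reached 32.2 ± 2.44 and the G protein-gated rectifier subunit Kcnj3 31.6 ± 5.35. The spread of these levels includes both library types, which were normalised separately.

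**Figure D1:**
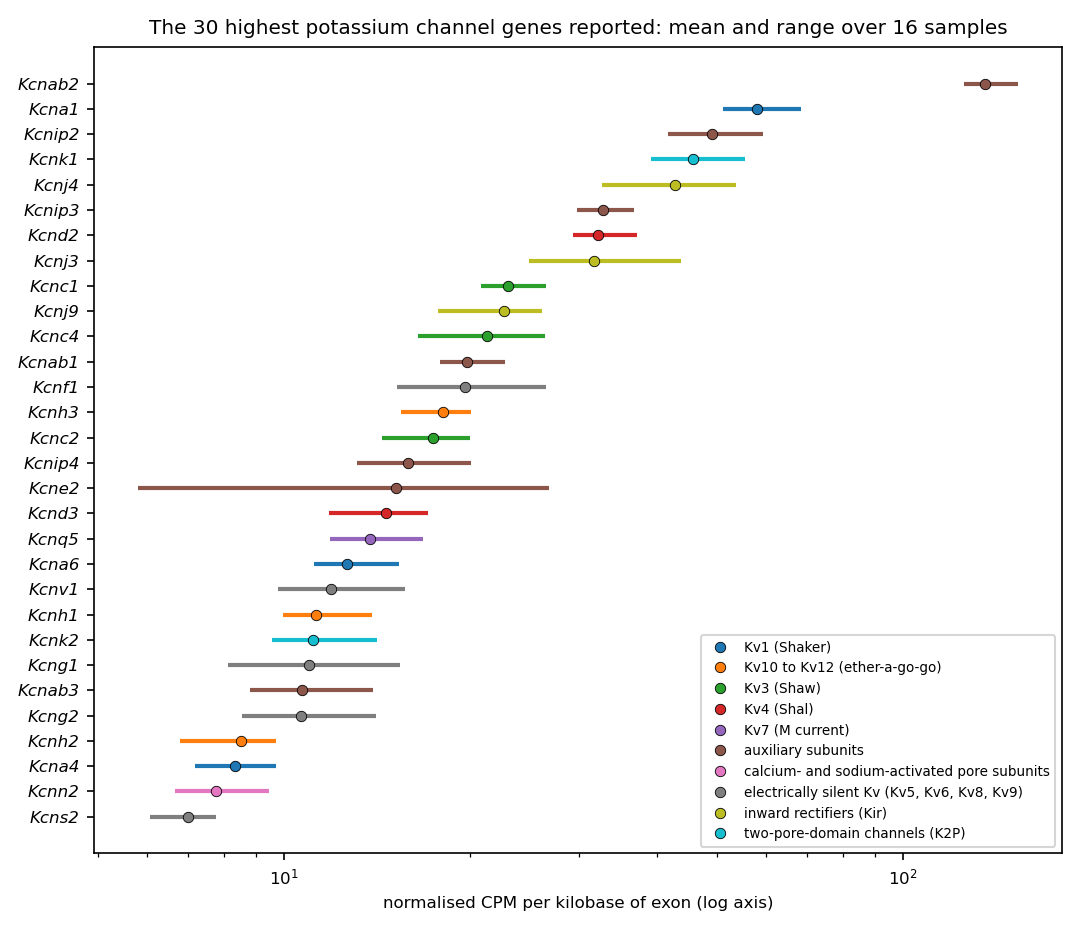
Level of the 30 highest potassium channel genes reported here, as normalised CPM per kilobase of exon on a log axis, with points for the mean over 16 samples and lines from the lowest to the highest sample, coloured by subfamily. Kcnab2 stands alone at 135.6, Kcna1 follows at 58.1, and Kcne2 has the widest relative range among the genes drawn.

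Without regard to length, 16 genes had a mean of 100 CPM or more, 37 lay from 10 to under 100 CPM, 22 from 1 to under 10 CPM and 17 under 1 CPM. For Kcnj1, the kidney potassium channel of salt reabsorption, no count was found in 17 libraries, and 3 counts would correspond to 0.1055 to 0.3256 CPM depending on the library, for counting error only. Kcne2, an auxiliary subunit strongly expressed in the choroid plexus, varied most among the abundant genes. Its level in the 3M single-end samples was 21.1, 23.27, 10.28, 46.42 and 47.28 CPM, and in the 24M samples 20.99, 34.82, 21.44, 31.56 and 33.87 CPM. The summed level of 5 choroid plexus markers in the same samples was 5034, 4840, 2024, 7803 and 8389 CPM at 3M and 4619, 7554, 5415, 7762 and 6445 CPM at 24M. The lowest and the highest 3M samples were the same for Kcne2 and for these markers.

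At 24M, 79 of the 92 genes passed the filter on low counts and were tested. The set leaned towards lower levels: 58 of 79 had a fold change below 0 (73.4%, against 50.8% of all 15683 genes tested), and the median log2 fold change was -0.14 for these genes and -0.0032 for all genes. Most of the shifts were small, as they were over all genes. On the log2 scale 76 of 79 were under 0.5, and so were 14763 of all 15683 genes (3.8% and 5.87% reached it). With edgeR's quasi-likelihood test and Benjamini-Hochberg adjustment over all genes tested, 6 genes fell (Kcnj9, Kcnj4, Kcnh5, Kcnf1, Kcnk12 and Kcnt1) and 2 rose (Kcnj16 and Kcnip4) at an adjusted p of at most 0.05. Over all genes, 2.37% fell and 3.21% rose by the same rule. When the log2 fold change also had to reach 0.5 in either direction, Kcnh5 was the only gene called lower (0.638% of all genes were) and none was called higher (1.34% of all genes were). At an unadjusted p under 0.05 there were 38 genes (48.1%, against 26.1% of all genes), 29 lower (12.1% of all genes) and 9 higher (14.0% of all genes). All 24M samples lay below all 3M samples for 8 genes, Kcna4, Kcnab3, Kcnh5, Kcnip1, Kcnj11, Kcnj4, Kcnj9 and Kcnk12, which is 10.1% of those tested, against 3.42% of all genes. No potassium channel gene had all 24M samples above all 3M samples, against 3.15% of all genes. In whole tissue, fewer cells of a type and less RNA per cell cannot be told apart.

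**Figure D2:**
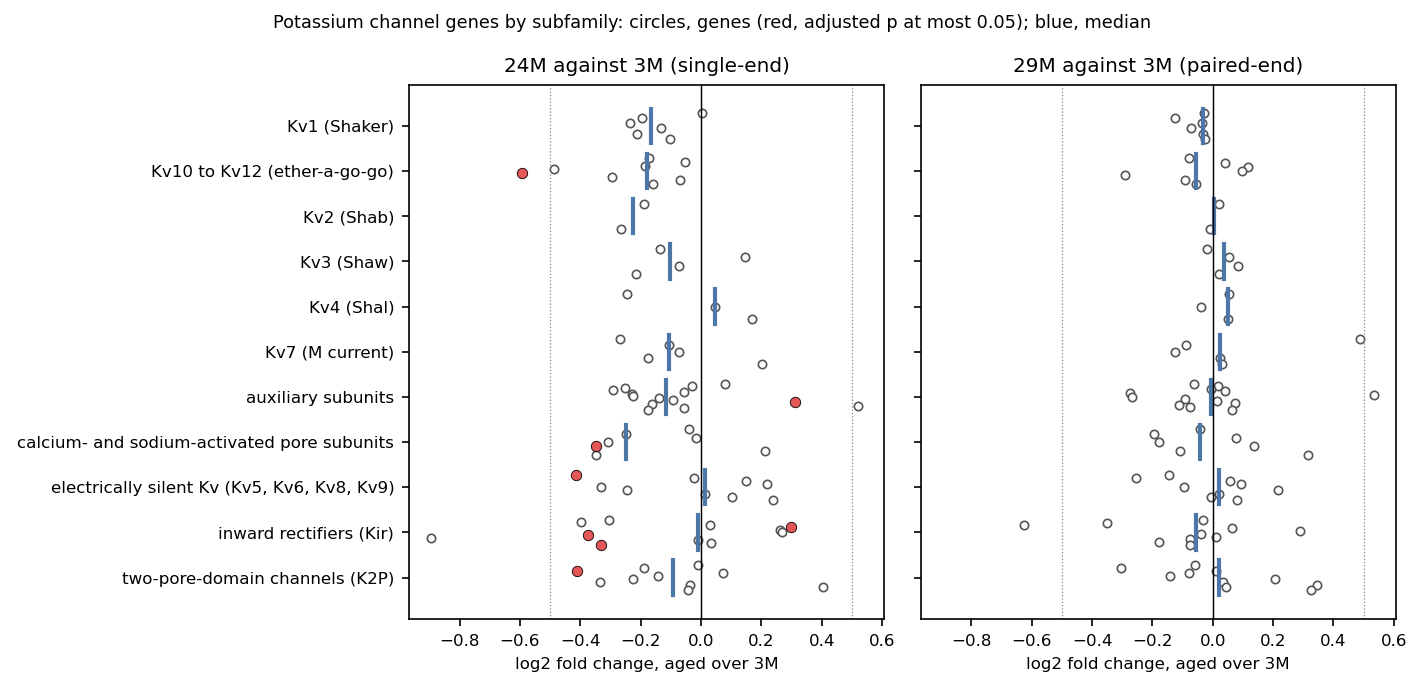
Log2 fold change of each tested potassium channel gene by subfamily, at 24M (left, 79 genes) and 29M (right, 76 genes), with blue bars for the median, red circles for an adjusted p of at most 0.05 and dotted lines at 0.5 either way. At 24M the medians of most subfamilies lie left of 0 and 8 genes are red, while at 29M the genes sit around 0 and none is red.

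Among the Kv pore subunits, Kcnh5 changed most. It belongs to the ether-a-go-go family of voltage-gated channels and lies on chromosome 12 (GRCm38, chr12:74897220-75177332). Kcnh5 measured 8.912, 11.64, 7.841, 10.55 and 11.56 CPM in the 3M samples and 6.812, 7.056, 6.701, 5.825 and 7.096 CPM in the 24M samples. Every 24M sample was below every 3M sample. The mean went from 10.1 ± 1.67 CPM (SD, n = 5) to 6.70 ± 0.515 CPM (n = 5), a log2 fold change of -0.59 ± 0.12 (SE) with an adjusted p of 0.0184 by edgeR. All 8 genes of that family were below 0 with a median of -0.18, and Kcnh5 was the only member to pass. Kcnh4 came next at -0.49 ± 0.18, with 2.82 to 4.94 CPM at 3M and 2.20 to 3.06 CPM at 24M, and did not pass (adjusted p = 0.106).

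The classical Kv families shifted less. Of the 6 Kv1 genes tested, 5 were below 0 (median -0.16), none passed, and Kcna1, the most abundant, measured 289.7 ± 16.4 CPM at 3M and 290.4 ± 22.9 CPM at 24M. Its log2 fold change was 0.0038, with a 95% interval from -0.12 to 0.13. Kcna4, an A-type Kv1 subunit, had its 24M samples at 38.2 to 42.5 CPM and its 3M samples at 42.7 to 46.9 CPM, a log2 fold change of -0.13 (adjusted p = 0.116). Kcnb2, a Kv2 delayed rectifier of the cell body, was at -0.26 (adjusted p = 0.126). Among the Kv3 genes of fast-spiking cells, Kcnc1 measured 230.4 ± 15.0 CPM at 3M and 209.8 ± 8.47 CPM at 24M (log2 fold change -0.14, adjusted p = 0.116), and Kcnc2 was above 0 at 0.15 (adjusted p = 0.104). The 3 Kv4 genes, which carry the dendritic A current, had a median of 0.045, with Kcnd2 at 0.045 and Kcnd3 at 0.17. The remaining 1 was below 0, at -0.24, and none passed. Of the Kv7 genes, 4 of 5 were below 0, with a median of -0.11 and none past the test. Kcnq5, an M-current subunit, stood at 104.3 ± 7.68 CPM and 119.8 ± 6.59 CPM, a log2 fold change of 0.20 (adjusted p = 0.0586).

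The electrically silent Kv genes encode subunits that form no channel alone and modify Kv2 channels. Of 9 tested, 4 were below 0 and 1 passed, Kcnf1 (chr12:17172100-17176888). Kcnf1 measured 111.8, 109.8, 126.7, 123.0 and 91.46 CPM in the 3M samples and 93.15, 83.53, 72.88, 85.06 and 88.16 CPM in the 24M samples. The groups met only where the lowest 3M sample lay below the highest 24M sample. The log2 fold change was -0.41 ± 0.086 (SE) with an adjusted p of 0.0191, and the mean decreased by 25.0%.

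The inward rectifiers moved in both directions. Of 11 tested, 6 were below 0 and 5 above, with 2 genes that fell and 1 that rose. Kcnj9 (chr1:172320501-172329318) encodes a subunit of the G protein-gated rectifiers that mediate slow inhibition. Its levels were 111.9, 103.4, 108.6, 102.0 and 94.42 CPM at 3M and 88.35, 81.94, 75.98, 86.3 and 80.63 CPM at 24M. The groups did not overlap, and the log2 fold change of -0.33 ± 0.058 (SE) had the smallest adjusted p of the potassium channel genes, 0.00894 by edgeR. Kcnj4 (chr15:79483714-79505241) encodes a strong inward rectifier of forebrain neurons. It measured 109.0, 101.0, 99.43, 115.5 and 100.3 CPM at 3M and 82.93, 75.19, 70.2, 91.05 and 86.01 CPM at 24M. Here too every 24M sample was below every 3M sample, with a log2 fold change of -0.37 ± 0.072 (SE) and an adjusted p of 0.0149. The other G protein-gated subunits did not pass: Kcnj3 stood at 0.27 (adjusted p = 0.114), Kcnj6 at -0.011 (adjusted p = 0.958) and Kcnj5, at most 1.36 CPM in these samples, at -0.90 ± 0.40 (adjusted p = 0.170).

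Kcnj16 (chr11:110968033-111027968) was the inward rectifier that rose. It encodes a subunit that joins other Kir subunits in astrocytes and kidney. Kcnj16 measured 24.55, 22.55, 29.46, 23.44 and 23.67 CPM in the 3M samples and 31.0, 30.88, 29.69, 28.79 and 32.36 CPM in the 24M samples. A single 3M sample, replicate 3 at 29.46 CPM, reached into the 24M range. The log2 fold change was 0.30 ± 0.075 (SE) with an adjusted p of 0.0371. Of 8 astrocyte markers, 2 rose at 24M, with a summed level of 5980 to 6643 CPM at 3M and 6464 to 6955 CPM at 24M, and their part in the result for Kcnj16 was not tested. Kcnj11, the pore subunit of ATP-sensitive channels, had its 24M samples at 11.8 to 15.8 CPM and its 3M samples at 16.1 to 20.2 CPM, without overlap, at -0.31 (adjusted p = 0.0653). Kcnj12, another strong rectifier, stood at -0.40 ± 0.12 (adjusted p = 0.0596).

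Of the channels opened by calcium or sodium, 6 of 7 tested were below 0 and Kcnt1 fell. Kcnt1 (chr2:25863734-25918273) encodes the sodium-activated channel that follows bursts of spikes. Its levels were 47.74, 46.13, 42.14, 55.89 and 37.4 CPM at 3M and 37.68, 33.76, 32.63, 37.1 and 39.35 CPM at 24M. The ranges overlapped at 3M replicate 5, and the log2 fold change of -0.35 ± 0.095 (SE) passed narrowly, with an adjusted p of 0.0495. Kcnma1, the large-conductance calcium-activated channel, was at 95.3 to 125.2 CPM at 3M and 104.3 to 115.7 CPM at 24M (log2 fold change -0.041, adjusted p = 0.730). The small-conductance channel Kcnn2 was at 58.6 ± 8.18 CPM and 57.9 ± 5.50 CPM (log2 fold change -0.018, adjusted p = 0.926), and its relative Kcnn3 stood at -0.31 (adjusted p = 0.118).

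Among the K2P genes, whose channels carry leak current, 8 of 10 tested were below 0 and Kcnk12 fell. Kcnk12 (chr17:87745801-87797994) measured 15.41, 12.99, 15.61, 13.04 and 12.45 CPM in the 3M samples and 10.22, 11.53, 8.814, 11.2 and 10.86 CPM in the 24M samples. The groups did not overlap, with a log2 fold change of -0.41 ± 0.098 (SE) and an adjusted p of 0.0326. Kcnk1, the most abundant K2P gene, was at 91.3 to 123.9 CPM at 3M and 100.3 to 116.5 CPM at 24M (log2 fold change -0.0089, adjusted p = 0.961), and Kcnk6 stood at 0.41 (adjusted p = 0.0754).

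Auxiliary subunits do not line the pore but set the gating and surface number of the channels. Of 14 tested, 11 were below 0 (median -0.12), none fell, and Kcnip4 rose. Kcnip4 (chr5:48389502-49524907) encodes a calcium-binding partner of Kv4 channels. It measured 47.56, 53.51, 53.23, 53.04 and 60.53 CPM at 3M and 71.18, 70.79, 72.57, 57.12 and 59.99 CPM at 24M. In the 24M group 3 samples lay above every 3M sample and 2 within the 3M range, and the log2 fold change was 0.31 ± 0.080 (SE) with an adjusted p of 0.0407. The related Kcnip1 went the other way, with 3M samples at 21.9 to 25.5 CPM and 24M samples at 17.7 to 21.7 CPM, at -0.22 (adjusted p = 0.0808). Kcnmb2, the subunit that inactivates large-conductance channels, measured 3.092, 3.948, 5.369, 3.77 and 4.2 CPM at 3M and 6.673, 5.614, 5.103, 6.221 and 5.805 CPM at 24M. It had the largest positive fold change of the genes tested here, 0.52 ± 0.14 (SE), and missed the threshold with an adjusted p of 0.0518.

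**Figure D3:**
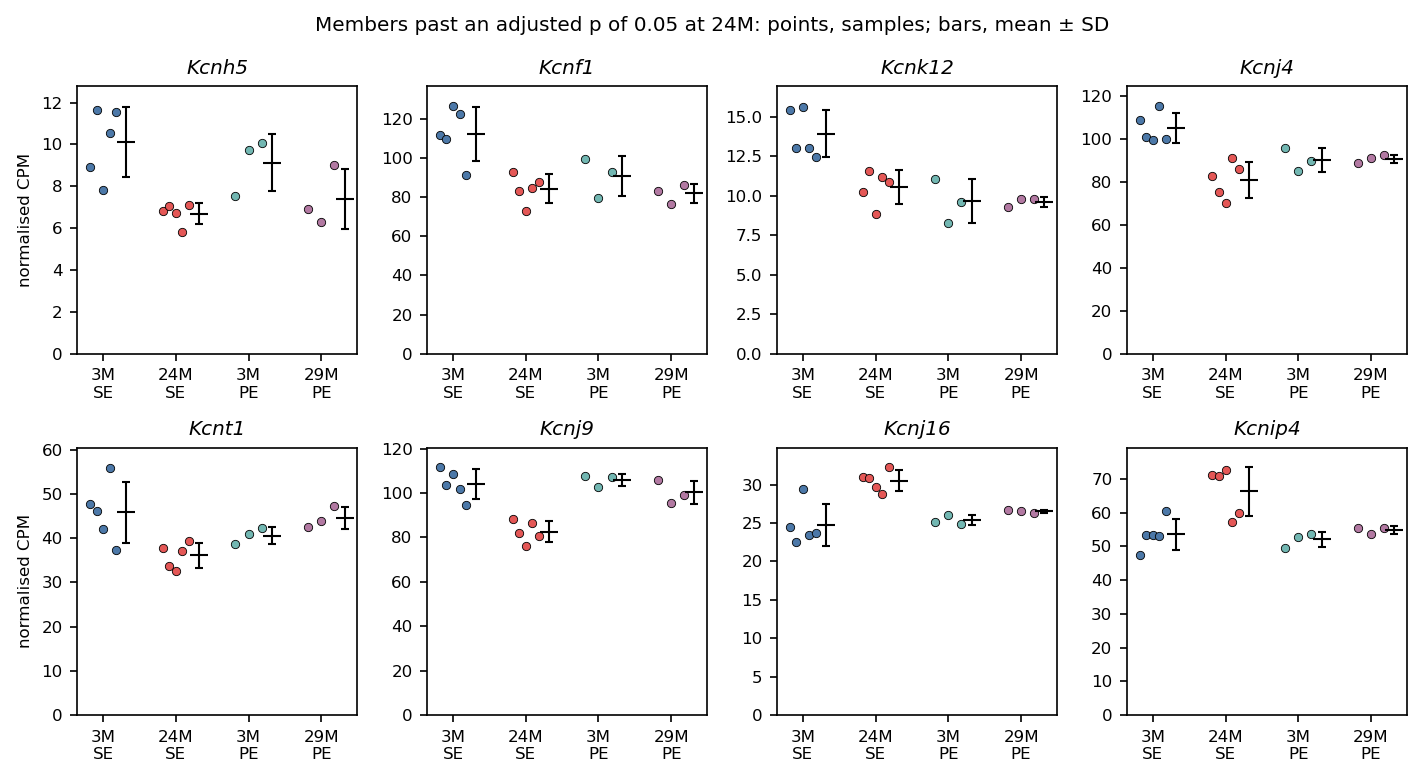
Normalised CPM of the 8 potassium channel genes with an adjusted p of at most 0.05 at 24M, in single-end (SE) and paired-end (PE) samples, with points for samples and bars for the mean ± SD. In single-end samples Kcnh5, Kcnk12, Kcnj4 and Kcnj9 separate 24M from 3M without overlap, whereas in paired-end samples the 29M points lie within or near the 3M points for each gene.

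Single libraries decided which of these genes passed. Without 24M replicate 2 only Kcnj9 passed, and the adjusted p of Kcnf1, Kcnh5 and Kcnj4 became 0.0596, 0.0509 and 0.051. Over all genes, 117 rose and 60 fell in that fit, against 504 and 371 in the main fit. Kcnf1, Kcnh5, Kcnj4 and Kcnj9 passed in each of the other 10 fits that left out 1 library. Kcnk12 did not pass without 3M replicate 1 or 3 or 24M replicate 2, 3 or 6, and Kcnt1 passed only without 3M replicate 5 or 24M replicate 4. Kcnj16 passed without 3M replicate 3 or 5 or 24M replicate 1, 4 or 5, and Kcnip4 without 3M replicate 5 or 24M replicate 1, 4, 5 or 6, and neither passed in the remaining fits. The fits without 24M replicate 1 or 4 kept the other of that pair as a sample. With both left out Kcnf1, Kcnh5, Kcnj4 and Kcnj9 passed by edgeR. Kcnj16 (adjusted p = 0.0854), Kcnip4 (0.101), Kcnk12 (0.077) and Kcnt1 (0.089) did not. Over all genes, 165 rose and 111 fell with the pair left out. Without 3M replicate 5, 19 genes passed, 13 lower and 6 higher, while over all 15802 genes tested 1086 fell and 1345 rose. Without 3M replicate 4, the library with high striatal markers, 7 genes fell (Kcna2 was among those gained and Kcnt1 was lost) and neither Kcnj16 nor Kcnip4 passed. Over all genes, 254 rose and 191 fell without that library. The log2 fold changes in that fit were 0.28 for Kcnj16 (adjusted p = 0.0763), 0.31 for Kcnip4 (adjusted p = 0.0736) and -0.27 for Kcnt1 (adjusted p = 0.0867). The lean of the set did not rest on 1 library: between 54 and 60 genes were below 0 and the median lay from -0.15 to -0.11 when each library was left out.

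The fold changes at 24M followed base composition. Across the 79 genes, transcript GC content and log2 fold change had a Pearson r of -0.45 and a Spearman rho of -0.45, and across all 15526 genes with a value r was -0.36 and rho -0.46. Genes are not independent replicates, so these values describe the libraries. The median GC content of the longest coding transcripts was 52.8% for the 92 genes. Over all 36602 annotated genes, noncoding ones included with their longest transcript, it was 48.2%. Of all genes tested at 24M with a value, 7965 lay at 50% GC or more and 7561 under it. Of the genes at 50% GC or more, 41 of 48 were below 0 (median -0.19), and of those under 50%, 17 of 31 were (median -0.041). Over all genes the same split gave 5541 of 7965 and 2339 of 7561. At 29M r was 0.052 and rho 0.17 across 76 of these genes, against 0.069 and 0.11 across all genes. There 23 of 47 genes at 50% GC or more were below 0 (median 0.0095), and of those under 50%, 18 of 29 were (median -0.040). With offsets for GC content and length in the fit, 54 genes were below 0 at 24M with a median of -0.12, and 52 at 29M with a median of -0.051. The medians over all genes with these offsets were -0.0111 at 24M and -0.0309 at 29M.

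The same offsets changed which genes passed. Over all genes, 330 passed higher and 298 lower with them at 24M, against 504 and 371 without. Kcnj4 (-0.29, adjusted p = 0.00687), Kcnj9 (-0.26, adjusted p = 0.00687), Kcnh5 (-0.60, adjusted p = 0.0127) and Kcnf1 (-0.36, adjusted p = 0.0218) fell with the offsets too. Kcnk12, whose transcript is 69.4% GC, went from -0.41 to -0.23 (adjusted p = 0.136), and Kcnt1 from -0.35 to -0.27 (adjusted p = 0.0867). The 2 genes that rose have transcripts low in GC, at 40.1% for Kcnip4 and 43.1% for Kcnj16, and neither passed with the offsets. Kcnip4 went from 0.31 to 0.084 (adjusted p = 0.349) and Kcnj16 from 0.30 to 0.17 (adjusted p = 0.315). Kcna4, Kcnb2, Kcnh7 and Kcnip1 fell with the offsets and not without them, and Kcnb2 went from -0.26 to -0.47 (adjusted p = 0.0145).

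**Figure D4:**
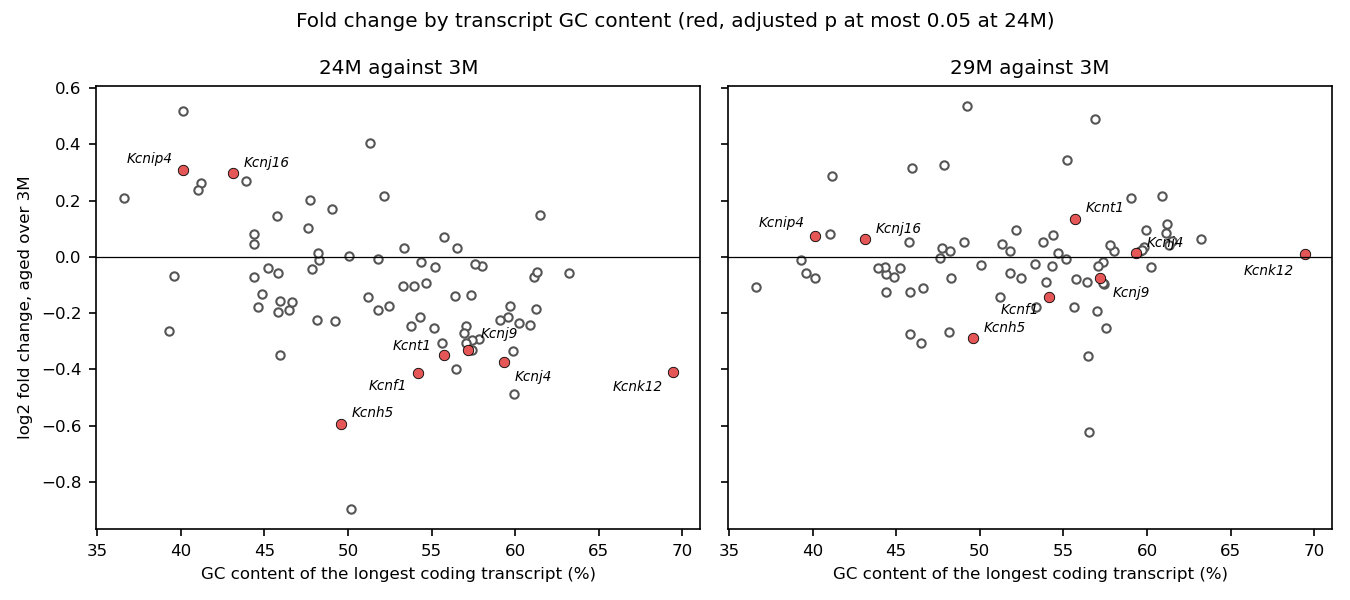
Log2 fold change of the tested potassium channel genes against the GC content of the longest coding transcript, at 24M (left) and 29M (right), with the 8 genes that passed at 24M in red and named. At 24M the points slope down (r = -0.45, n = 79), and at 29M the correlation was 0.052 (n = 76).

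At 29M, 76 of the 92 genes were tested and none passed, neither lower (0.662% of all 15097 genes fell) nor higher (2.32% rose). With the fold change threshold added, 0.113% of all genes were called lower and 1.34% higher. At an unadjusted p under 0.05 there were 9 genes (11.8%, against 17.3% of all genes), 6 lower (7.48% of all genes) and 3 higher (9.86% of all genes), and DESeq2 also passed none at its adjusted p. The median log2 fold change was -0.014 for these genes and -0.0021 for all genes, with 41 of 76 below 0 (50.6% of all genes were). With the offsets for GC content and length 52 of 76 were below 0, and the median over all genes also moved, to -0.0309. All 29M samples lay above all 3M samples for Kcnj16, Kcnj2, Kcnk9 and Kcnt1 (5.26% of those tested, against 11.9% of all genes) and below for 6 genes (7.89%, against 10.5%).

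The smallest p at 29M were those of Kcnk9, Kcng1 and Kcnj2. Kcnk9, a K2P leak channel sensitive to acid, measured 12.06, 11.19 and 13.94 CPM at 3M and 15.73, 14.55 and 15.91 CPM at 29M. The groups did not overlap, and the log2 fold change of 0.33 ± 0.10 (SE) had an adjusted p of 0.106. Kcng1, an electrically silent Kv subunit, measured 61.89, 46.99 and 53.41 CPM at 3M and 45.08, 45.94 and 44.69 CPM at 29M. It was lower in each 29M sample, at -0.25 ± 0.084 (SE, adjusted p = 0.131), and it passed without 3M replicate 2 (-0.35, adjusted p = 0.0255). Kcnj2, a strong inward rectifier, was at 13.24, 18.06 and 18.07 CPM at 3M and 19.85, 19.4 and 21.14 CPM at 29M, and its log2 fold change was 0.29 ± 0.11 (SE, adjusted p = 0.188). The groups were again apart. Kcnip1 stood at -0.27 (adjusted p = 0.191), Kcnk2, a mechanosensitive K2P channel, at -0.14 (adjusted p = 0.230) and Kcnj12 at -0.35 (adjusted p = 0.243). Kcnj14, a rectifier at 1.05 to 2.16 CPM, had the largest fold change, -0.62 ± 0.26 (adjusted p = 0.244). Without the filter on low counts 5 genes passed at 29M, Kcnj2 and Kcnk9 higher and Kcng1, Kcnip1 and Kcne2 lower. Over all 24470 genes in that fit, 753 passed higher and 335 lower, against 351 and 100 with the filter.

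The genes that fell at 24M had the following values at 29M. Kcnh5 went from 9.13 ± 1.37 CPM (SD, n = 3) to 7.40 ± 1.43 CPM (n = 3), a log2 fold change of -0.29 ± 0.16 (SE, adjusted p = 0.365). Kcnf1 stood at -0.14 ± 0.071 (adjusted p = 0.325) and Kcnj9 at -0.077 ± 0.045 (adjusted p = 0.414). Kcnj4 was at 90.3 ± 5.45 CPM at 3M and 91.0 ± 1.86 CPM at 29M, with a 95% interval of the log2 fold change from -0.093 to 0.12. Kcnk12 was at 9.63 ± 1.40 CPM and 9.62 ± 0.318 CPM, with an interval from -0.26 to 0.27. Kcnt1 was at 0.14 ± 0.064 (adjusted p = 0.298), in the direction opposite to 24M. Of the genes that rose at 24M, Kcnj16 stood at 0.063 ± 0.064 and Kcnip4 at 0.075 ± 0.055.

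Whether the effects at the ages differ was tested directly, as the 29M effect minus the 24M effect with all groups in 1 fit. Of 80 potassium channel genes tested none passed by edgeR (adjusted p of at most 0.05), as did none of 16055 genes in all, and DESeq2 passed none of the 80. At an unadjusted p under 0.05 there were 12 (15.0%, against 10.4% of all genes). The smallest p were those of Kcnj4 (difference 0.38 ± 0.11, SE) and Kcnt1 (0.48 ± 0.14), then Kcnh3 and Kcnj9, each with an adjusted p of 0.392. Without 3M single-end replicate 5, Kcnt1 passed by edgeR (adjusted p = 0.0477). Over all 15961 genes in that fit, 9 passed with a higher and 83 with a lower effect at 29M. Age, library type and read length cannot be told apart in this contrast.

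Across the 76 genes tested at both ages, 31 were below 0 at both, 11 above 0 at both, 24 below at 24M and above at 29M, and 10 the reverse. Pearson's r between the fold changes was 0.068 and Spearman's rho 0.11 across these genes, against 0.46 and 0.32 across all 14898 genes tested at both ages. The comparisons share no sample, but genes within each share all libraries, so these values are a description.

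**Figure D5:**
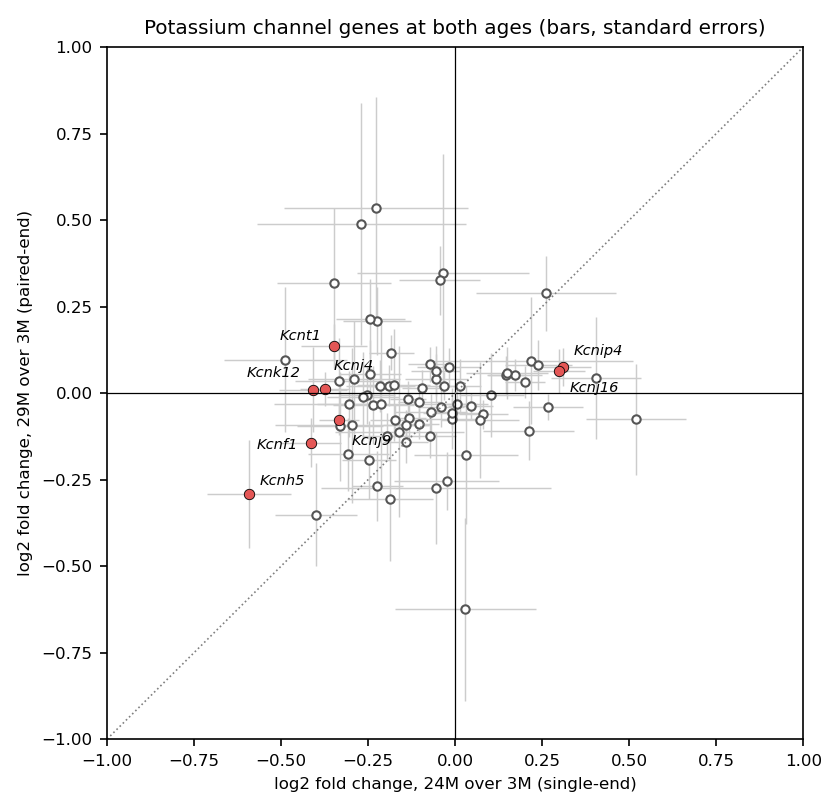
Log2 fold change at 24M (horizontal) against that at 29M (vertical) for the 76 potassium channel genes tested at both ages, with grey bars for standard errors, a dotted line of equal change and the 8 genes that passed at 24M in red. The cloud is wider along the horizontal axis and shows little slope (r = 0.068), with Kcnh5 and Kcnf1 below 0 at both ages and Kcnj4 and Kcnk12 near 0 at 29M.

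Partner genes outside the Kcn symbols were listed by role: 18 genes, 17 of them tested at each age. At 24M, 1 of 17 passed, the pacemaker channel gene Hcn4, and at 29M none did. Hcn4 fell from 2.71 ± 0.421 CPM (SD, n = 5) to 1.21 ± 0.330 CPM (n = 5), a log2 fold change of -1.14 ± 0.19 (SE) with an adjusted p of 0.0084, and its groups did not overlap. At 29M Hcn4 stood at -0.46 ± 0.32 (adjusted p = 0.510). The partners of Kv2 and Kv4 channels did not pass at 24M: Amigo1, which binds Kv2 channels, was at -0.12 (adjusted p = 0.110) and the Kv4 partners Dpp6 and Dpp10 at -0.075 (adjusted p = 0.382) and -0.25 (adjusted p = 0.184). At 29M Dpp10 had the smallest adjusted p of the partners, 0.055 at -0.23.

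Markers of cell types and regions moved in the same comparisons. At 24M 3 of 6 neocortical markers fell (median log2 fold change -0.46), with a summed level of 228.1 to 350.0 CPM at 3M and 188.5 to 206.5 CPM at 24M. None of 10 striatal markers passed, although each was below 0 (median -0.53). Of 11 immediate early genes 5 fell (median -0.94), with sums of 315.4 to 949.4 CPM at 3M and 236.7 to 289.7 CPM at 24M. At 29M no gene of the neocortical or immediate early lists passed. Microglial markers rose at both ages, 5 of 8 at 24M and 6 of 8 at 29M. Of 5 markers of oligodendrocyte precursors 1 fell at each age, and their sums did not overlap (164.2 to 189.5 CPM at 3M and 143.0 to 161.7 CPM at 24M in single-end, 162.7 to 169.3 CPM at 3M and 130.5 to 141.0 CPM at 29M in paired-end samples). The marker that fell was Gpr17, from a mean of 55.16 to 27.76 CPM at 24M and from 55.15 to 28.48 CPM at 29M. Pdgfra, the most abundant of the 5, went from 77.81 to 81.38 CPM at 24M and from 67.91 to 69.44 CPM at 29M. In all, 1 of the 5 was above 0 at 24M and 2 at 29M. The sum of 8 astrocyte markers was 5642 to 5741 CPM at 3M and 6112 to 6150 CPM at 29M. The 1 marker that rose was Gfap, from a mean of 465.6 to 810.1 CPM. Among interneuron markers 1 of 8 fell at 24M (Slc32a1, log2 fold change -0.39, adjusted p = 0.0367), and among endothelial markers 1 of 7 (Cldn5, -0.60, adjusted p = 0.0242). None of 10 neuronal markers passed at 24M and 1 fell at 29M, with medians of -0.028 at 24M and -0.067 at 29M and sums of 13980 to 14450 CPM at 3M and 13460 to 15990 CPM at 24M. The part of these markers in the results for the potassium channel genes was not tested.

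Some values carry a further limit. The library kit does not mark strand, so reads of a gene and of an overlapping antisense gene cannot be told apart, which applies to Kcnq1 and the antisense RNA within it. Kcnq1 reached at most 1.25 CPM.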

How the data were processed

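RNA of mouse hippocampus was measured in 17 libraries, and the submitters' processing notes name CASAVA, STAR 2.3.0, HTSeq, DESeq2 and the build GRCm38.p2. Raw counts per gene, made with STAR and HTSeq and not normalized, are what the authors deposited. For counting, the annotation is not stated in the sources used here. Rows without a gene were dropped from totals and fits (reads on no feature made up 8.59% to 12.7% in single-end and 11.4% to 15.9% in paired-end libraries). The identifiers were named from GENCODE M21, which matched 36602 of 38355. Depth limits the precision below 1 CPM.

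The test was that of edgeR 4.0.16 in R 4.3.3 (quasi-likelihood, TMM, default filter on low counts) with Benjamini-Hochberg adjustment over all genes tested, and the steps were tested on simulated data. CPM are TMM-normalised. Standard errors were derived from the F statistic and the log2 fold change, and intervals (95%) come from the t distribution with edgeR's total degrees of freedom. A gene passed with an adjusted p up to 0.05 and was called if its log2 fold change also reached 0.5 in either direction, as in the study.

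The genes and lists were chosen with earlier results of these data known, and so was the merging of 24M replicates 1 and 4. Named were, in each comparison, genes called or past the test, the 10 smallest p, and members of the study's gene lists (Kcnh5, Kcnmb2, Kcna1, Kcnc1, Kcnn2). Other genes in the text (abundant genes, relatives of those named, Kcne2) were chosen after their values were seen. A few genes with values are left unnamed and not reported here. The alternatives were DESeq2 1.42.0, DESeq2's size factors, any gene with 1 count or more, a stricter filter (1 CPM), all 4 groups in 1 fit, the replicate block, no fold change threshold, the 24M pair kept apart or left out, and each library left out. Loess offsets (span 0.3) for GC content and transcript length, alone and with the block, were added after seeing the data. Splicing, editing, microarray and qPCR were not analysed here.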

Additional observations from a re-analysis of the deposited data

Results flagged for a closer look

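In groups of 5 samples, a sample was singled out when its gap to the nearest other sample, as a share of the group's range, was above 0.71. Chance alone does so in about 1 in 20 groups. Of 158 groups (79 potassium channel genes, 3M single-end and 24M), 7 held such a sample, against 7.9 by chance. Replicate 4 of the 3M single-end group was singled out for 3 genes. Kcna5, a Kv1 subunit of smooth muscle and heart, was at 5.299 CPM in it and at 1.818 to 2.223 CPM in the other 3M samples (gap 0.884). Kcnk2 was at 69.8 CPM, against 55.64 to 59.54 CPM (gap 0.725), and Kcna2, an axonal Kv1 subunit, at 56.2 CPM, against 67.44 to 71.3 CPM (gap 0.744). This library also had the highest summed striatal markers, 810.3 CPM, and their part in these values was not tested. Kcnj16 was at 29.46 CPM in 3M single-end replicate 3, against 22.55 to 24.55 CPM (gap 0.711), and without that replicate its log2 fold change at 24M was 0.37. Kcnt2, a sodium-activated channel, was at 34.09 CPM in 3M single-end replicate 5, against 24.74 to 27.22 CPM (gap 0.735). At 24M, Kcnj11 was at 11.76 CPM in replicate 2, against 14.73 to 15.78 CPM (gap 0.739), and Kcns3, a silent Kv subunit, at 10.97 CPM in replicate 5, against 11.96 to 12.36 CPM (gap 0.712). No difference between the effects at both ages passed its test.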

How the results depend on the processing

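At 24M, 2 higher and 6 lower genes passed and 1 was called lower (504 of all genes passed higher and 371 lower). The same counts came with DESeq2's size factors, without a filter and with a stricter one. DESeq2 passed 4 higher and 9 lower and called Kcnmb2 higher (1), all 4 groups in 1 fit gave 6, 11 and 1, and the 24M pair kept apart gave 4, 8 and 1. More of all genes passed too: 936 higher and 661 lower with DESeq2, 1289 and 971 with all 4 groups, and 996 and 726 with the pair apart. With the pair left out 0 were higher and 4 lower (165 and 111 of all genes). Without the fold change threshold the calls are the 2 and 6. GC content and length offsets gave 0 higher and 8 lower (330 and 298 of all genes). The same replicate numbers did not deviate together (correlations -0.123, 0.0602, 0.00798 and -0.213 at 24M and -0.133, -0.0947 and 0.129 at 29M). These few values gave no sign that numbers pair the samples and cannot exclude it. With the replicate block 0 passed in either direction at 24M, 0 were called and 0 passed at 29M. Few of all 15683 genes passed with it at 24M, 63 higher and 27 lower, against 504 and 371 in the main fit. At 29M 345 of all genes passed higher and 89 lower with the block. The block with the offsets left 0 higher and 2 lower at 24M (Kcnb2 and Kcnj4), with Kcnb2 the 1 gene called, at -0.54, in place of Kcnh5, and a median of -0.0885. It left 1 lower at 29M (Kcng1), where Kcnj4 was at -0.0509 and Kcnk12 at -0.1495. Over all genes, the block with the offsets passed 117 higher and 73 lower at 24M and 366 and 241 at 29M.

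Leaving out 1 library, 0 to 6 passed higher and 1 to 13 lower at 24M, with 0 to 1 called in each direction. No gene passed higher without 3M replicate 1, 2 or 4 or 24M replicate 2 or 3, and 1 did without 24M replicate 6. Kcnmb2 was called without 3M replicate 3 or 5 or 24M replicate 4, and none was called lower without 24M replicate 2. The extremes of 1 and 13 came without 24M replicate 2 and 3M replicate 5, where 60 and 1086 of all genes passed lower. At 29M 0 to 1 passed lower (Kcng1, without 3M replicate 2, where 104 of all genes did). The difference between ages passed for 0 to 1 gene (Kcnt1, without 3M single-end replicate 5, where 9 of all genes passed higher and 83 lower). The 29M median ran from -0.0399 to 0.0065. Without a filter 2 higher and 3 lower passed at 29M (753 and 335 over all genes). With offsets the 29M median was -0.0514, and -0.0309 over all genes.

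Of the genes whose sign turned, none passed the test in that comparison. Without a filter Kcna1 was at -0.0027 at 24M. With offsets Kcng1 and Kcnn2 were at 0.0497 and 0.0378 at 24M, and Kcnj4 and Kcnk12 at -0.0511 and -0.137 at 29M. Without the 24M pair Kcnn2 was at 0.0086. Leaving out 1 library gave, at 24M, -0.0503 to 0.0287 for Kcna1, -0.1179 to 0.1288 for Kcng1, -0.0782 to 0.1148 for Kcnj14, -0.1266 to 0.0242 for Kcnk9 and -0.0826 to 0.0583 for Kcnn2. At 29M it gave -0.055 to 0.0356 for Kcnc1, -0.03 to 0.0582 for Kcnj4, -0.1037 to 0.1177 for Kcnk12 and -0.1762 to 0.0019 for Kcnmb2. The cause of these changes was not tested.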
